A study of Mus musculus with 6 samples.

Results

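The genes described here are 10 genes of the smooth muscle contractile apparatus, Myh11, Acta2, Actg2, Myl9, Mylk, Smtn, Cnn1, Tagln, Lmod1 and Myocd, out of 54532 genes in the count table of primary mouse myoblasts. They were taken by gene symbol. Myh11 was chosen by its call in the contrast reported below, the libraries labelled eIF5A-KO against the WT libraries, and the other 9 were taken with it as genes of the same apparatus. Their differences between the groups are therefore given as a description, with values, standard errors (SE) and 95% intervals. The adjusted p-values printed for them show how the choice was made and are not a test of it.

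The study asked which mRNAs depend on eIF5A, a translation factor that carries the modified lysine hypusine, when skeletal muscle stem cells (satellite cells, SCs) become active. RNA-seq of primary myoblasts, the cultured progeny of SCs, gave 3 WT libraries and 3 libraries labelled eIF5A-KO. The cells came from hind-limb muscle of mice 3 weeks old, digested with dispase and collagenase and passed through a strainer, with no sorting step given for these libraries (the study sorted SCs of reporter mice after a like digest), and RNA was taken on day 2 from cells grown with FGF at a stated 10 µg per ml and fetal bovine serum. The KO mice were described as Pax7 CreERT2/+;eIF5A f/f and induced with tamoxifen, and the controls as Pax7 CreERT2/+ mice or Pax7 +/+;eIF5A f/f mice in other experiments and as littermates for myoblasts, so whether the WT cells carried the Cre is not settled. This Cre recombines in cells that express Pax7, so other cell types in the dish would carry the allele without recombination. The labels do not say whether the 3 libraries of a group came from separate mice or cultures, so SEs and p-values measure only the spread between these libraries.

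Smooth muscle contracts when calmodulin-bound calcium activates myosin light chain kinase, which phosphorylates the regulatory light chain of smooth muscle myosin and lets it pull on smooth muscle actin. Serum response factor (SRF) and its co-activators of the myocardin family drive many of these genes through a DNA element called the CArG box. In skeletal muscle the genes are known from vascular smooth muscle, and several also from pericytes and activated fibroblasts, while myoblasts can express some of them, such as Acta2, in culture.

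The promoters of Acta2 and Myl9 are shown because they are the members with a CArG match, and because these 2 genes were the most abundant of the 10 per length in WT. Of the 10 genes, 6 had an entry among the RefSeq promoters (GRCm38.p6, 250 bases before to 50 after the annotated start): Acta2, Myl9, Smtn, Mylk, Lmod1 and Cnn1. Capitals mark matches to the CArG box, searched on both strands, either exact or with 1 C or G in its A/T core. The Acta2 sequence is chr19:34255324-34255623, minus strand, and the Myl9 sequence is chr2:156775214-156775513, plus strand, each written 5′ to 3′ in the direction of the gene.
Acta2: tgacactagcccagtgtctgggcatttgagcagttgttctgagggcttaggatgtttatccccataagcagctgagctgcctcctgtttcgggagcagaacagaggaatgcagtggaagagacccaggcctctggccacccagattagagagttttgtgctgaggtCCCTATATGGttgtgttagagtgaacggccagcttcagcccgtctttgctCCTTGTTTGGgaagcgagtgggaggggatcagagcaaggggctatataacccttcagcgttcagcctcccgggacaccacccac
Myl9: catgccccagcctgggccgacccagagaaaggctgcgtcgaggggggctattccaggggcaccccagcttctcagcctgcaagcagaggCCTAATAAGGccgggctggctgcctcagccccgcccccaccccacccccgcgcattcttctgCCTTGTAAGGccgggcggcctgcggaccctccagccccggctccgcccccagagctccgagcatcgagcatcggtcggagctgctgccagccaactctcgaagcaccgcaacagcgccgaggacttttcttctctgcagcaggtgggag
Myl9 held 1 exact match, CCTAATAAGG at position -161 from the start, and 1 with a substituted core, CCTTGTAAGG at -99. Acta2 held 2 with a substituted core, CCCTATATGG at -84 and CCTTGTTTGG at -34. No match was found in the windows of Smtn, Mylk, Lmod1 and Cnn1, which says only that these letters are not in those 300 bases. An exact match was present in 1.63% of all 32851 promoters of this length, and a match with 1 substitution in 8.5%.

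Library depth was 16281216 to 17734551 counts, and 14679 genes passed the filter on low counts. WT 1 had 5.75% of its counts on mitochondrial transcripts, against 2.11% to 3.50% in the other libraries. Eif5a, the targeted gene, had 1603, 986 and 1238 CPM (reads of a gene relative to the library total, scaled by TMM factors) in WT 1 to 3 and 1364, 1459 and 1059 CPM in the libraries labelled eIF5A-KO 1 to 3. The groups overlapped and the log2 fold change was 0.02 ± 0.23 (SE), so the Eif5a transcript count does not separate the labels. The exons that the deletion removes are not given in the sources used here, so counts over the whole gene may include a transcript that lacks them. Directions below are those of the labels. Myoblast markers were present in every library, summing to 1276 to 2245 CPM over 10 genes in WT and 1003 to 1862 CPM in the KO-labelled libraries, among them Myod1 at 264 to 549.9 CPM in WT and 196 to 349 CPM in the KO-labelled libraries. Sdc4 held a large part of these sums, on average 457 CPM in WT and 495 CPM in the KO-labelled libraries. Endothelial markers, also 10 genes and described below, summed higher than the myoblast markers in every library.

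Compared per length, in FPKM (fragments relative to gene length and library depth), the genes spanned a wide range in WT. Acta2, the smooth muscle alpha-actin, was highest at 39.2 ± 10.9 FPKM (SD, n = 3), followed by Myl9, a regulatory light chain of smooth muscle and non-muscle myosin, at 24.5 ± 4.44 FPKM. These 2 overlapped between libraries. Smtn, the actin-binding protein smoothelin, stood at 12.3 ± 2.66 FPKM, below Myl9 in every library, and the step from Smtn to the next gene was 7.42-fold. Mylk, the kinase of the light chain, at 1.66 ± 0.234 FPKM and Myh11, the smooth muscle myosin heavy chain, at 1.39 ± 0.0384 FPKM overlapped with each other. Lmod1, an actin filament nucleator of smooth muscle, had 0.876 ± 0.0595 FPKM. Actg2, the enteric smooth muscle gamma-actin, at 0.409 ± 0.218 FPKM and Tagln, the actin-binding protein transgelin or SM22, at 0.312 ± 0.0344 FPKM overlapped again. Myocd, the co-activator myocardin, and Cnn1, calponin 1, were close to the limit of detection at 0.0202 and 0.0149 FPKM. In these WT cultures Acta2, Myl9 and Smtn averaged above 10 FPKM, Mylk and Myh11 lay between 1 and 2 FPKM, and Lmod1, Actg2, Tagln, Myocd and Cnn1 were below 1 FPKM.

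In the KO-labelled libraries Acta2 was also highest, at 50.9 ± 13.6 FPKM (SD, n = 3). Smtn at 16.0 ± 1.88 FPKM and Myl9 at 14.8 ± 1.88 FPKM overlapped there, whereas in WT they did not. Myh11 at 4.001 ± 0.424 FPKM was above Mylk at 2.06 ± 0.600 FPKM in every library. Lmod1 at 1.61 ± 0.251 FPKM overlapped with Mylk and with Actg2 at 1.32 ± 0.266 FPKM.

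**Figure D1:**
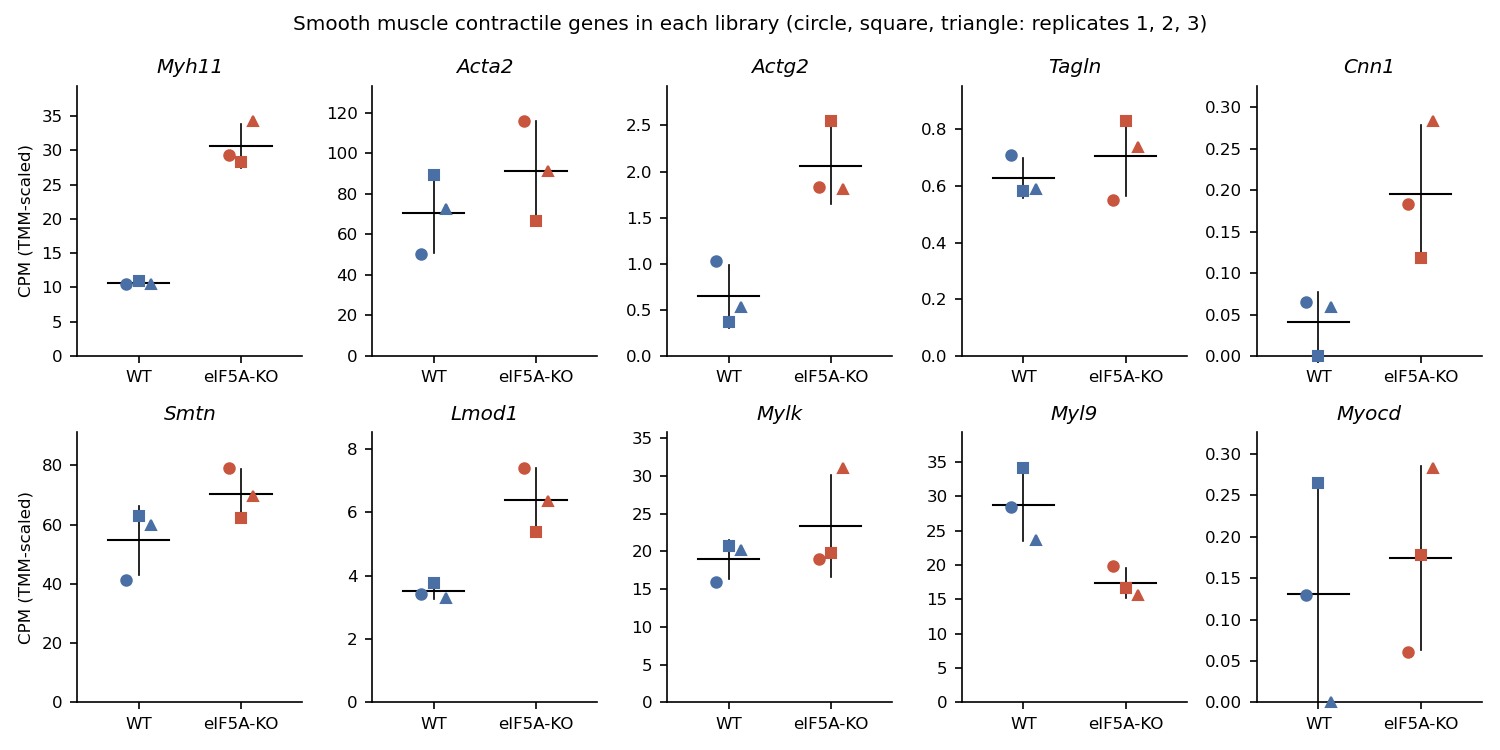
TMM-scaled CPM (vertical axes, each from 0) of the 10 genes in the 3 WT (blue) and 3 eIF5A-KO (red) libraries; bars are the mean and 1 SD. The KO-labelled points of Myh11 lie between 28.3 and 34.2 CPM and the WT points between 10.5 and 11.0 CPM, those of Myl9 lie below WT, and those of Acta2, Smtn, Mylk, Tagln and Myocd overlap with WT.

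Among the motor and filament genes, Myh11 had 10.5, 11.0 and 10.5 CPM in WT 1 to 3 and 29.2, 28.3 and 34.2 CPM in the KO-labelled libraries 1 to 3. The WT libraries lay close together and every KO-labelled library was above all of them. These values rest on 162 to 207 counts in WT and 478 to 604 counts in the KO-labelled libraries. The log2 fold change was 1.51 ± 0.17 (SE; 95% interval 1.12 to 1.90), or 2.85-fold, and Myh11 lies at chr16:14194535-14291372 on the minus strand (mm10).

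Acta2 had 50.2, 89.2 and 72.3 CPM in WT 1 to 3 and 116, 66.5 and 91.4 CPM in the KO-labelled libraries. The lowest value was that of WT 1 and the highest that of KO-labelled library 1, and the groups overlapped. This gave a log2 fold change of 0.37 ± 0.26 (SE; 95% interval -0.22 to 0.96), which was 0.17 without KO-labelled library 1, 0.18 without WT 1 and 0.58 without WT 2. Acta2 lies at chr19:34241090-34255336 on the minus strand.

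Actg2 was read from few counts, 16, 7 and 9 in WT 1 to 3 and 30, 43 and 32 in the KO-labelled libraries, which is 1.03, 0.371 and 0.532 CPM against 1.84, 2.55 and 1.81 CPM. All KO-labelled libraries were above all WT libraries, and it was through the KO-labelled libraries that Actg2 passed the filter on low counts, so a gene with this pattern had to differ in that direction. The log2 fold change was 1.53 ± 0.40 (SE; 95% interval 0.63 to 2.43). Without WT 1, the highest of the WT libraries, it was 1.96. Actg2 lies at chr6:83512905-83536265 on the minus strand.

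Myl9 went the other way. It had 28.4, 34.2 and 23.7 CPM in WT 1 to 3 and 19.9, 16.6 and 15.6 CPM in the KO-labelled libraries, from 275 to 644 counts. The lowest WT library was above the highest KO-labelled one. Its log2 fold change was -0.72 ± 0.20 (SE; 95% interval -1.17 to -0.28). The gene, with the CArG matches shown above, lies at chr2:156775420-156781658 on the plus strand.

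Among the genes that regulate the filaments, Lmod1 had 3.43, 3.77 and 3.31 CPM in WT 1 to 3 and 7.40, 5.39 and 6.35 CPM in the KO-labelled libraries. The groups did not overlap, and the counts were 53 to 71 in WT and 91 to 121 in the KO-labelled libraries. Its log2 fold change was 0.84 ± 0.24 (SE; 95% interval 0.30 to 1.39). Lmod1 lies at chr1:135324807-135368065 on the plus strand, with the snRNA gene Gm22796 in an intron.

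Smtn had 41.4, 62.8 and 59.8 CPM in WT 1 to 3 and 79.2, 62.3 and 69.8 CPM in the KO-labelled libraries. WT 1 was the lowest library, and KO-labelled library 2 lay just under WT 2, so the groups overlapped. The log2 fold change was 0.36 ± 0.20 (SE; 95% interval -0.09 to 0.82), and 0.21 without WT 1. Exons of 2 genes on the other strand, Gm11946 and Gm11947 with at most 5 counts each, lie over 16.3% of the Smtn exons (chr11:3517523-3540612, minus strand).

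Mylk had 16.0, 20.7 and 20.1 CPM in WT 1 to 3 and 19.0, 19.8 and 31.1 CPM in the KO-labelled libraries. Only KO-labelled library 3 was above the WT range. The log2 fold change was 0.30 ± 0.23 (SE; 95% interval -0.23 to 0.82), and it was 0.04 without that library. Mylk lies at chr16:34745210-35002420 on the plus strand, and exons of E130310I04Rik and Gm21691 on the other strand, with at most 2 and 3 counts, lie over 6.85% of its exons; 1700119H24Rik lies in its introns.

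Tagln had 11, 11 and 10 counts in WT 1 to 3 and 9, 14 and 13 in the KO-labelled libraries, or 0.711, 0.583 and 0.591 CPM against 0.551, 0.829 and 0.737 CPM. The groups overlapped, with a log2 fold change of 0.15 ± 0.35 (SE; 95% interval -0.63 to 0.92), from 0.04 without KO-labelled library 2 to 0.28 without KO-labelled library 1. The level of Tagln needs care, since 67.9% of its exonic bases (chr9:45929619-45936058, minus strand) lie under exons of genes on the other strand. These are the antisense gene Gm48529, with 1241 shared bases and 8 to 32 counts, and Pcsk7, with 108 shared bases and 672 to 792 counts. How reads over both strands were assigned is not given in the sources used here, so the Tagln count may leave out reads from shared bases.

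Cnn1 and Myocd did not pass the filter. Cnn1 had 1, 0 and 1 counts in WT 1 to 3 and 3, 2 and 5 in the KO-labelled libraries, a ratio of 5.04 between the summed libraries (95% exact interval 1.07 to 47.3, counting error only). Myocd had 2, 5 and 0 counts in WT and 1, 3 and 5 in the KO-labelled libraries, a ratio of 1.30 (0.429 to 4.09). The KO-labelled libraries of Cnn1 did not overlap with WT, at 12 counts in all, and those of Myocd did. With so few counts, and with the spread between libraries not in these intervals, no difference is read from either gene. Cnn1 lies at chr9:22099216-22109630 on the plus strand and Myocd at chr11:65176561-65269989 on the minus strand.

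**Figure D2:**
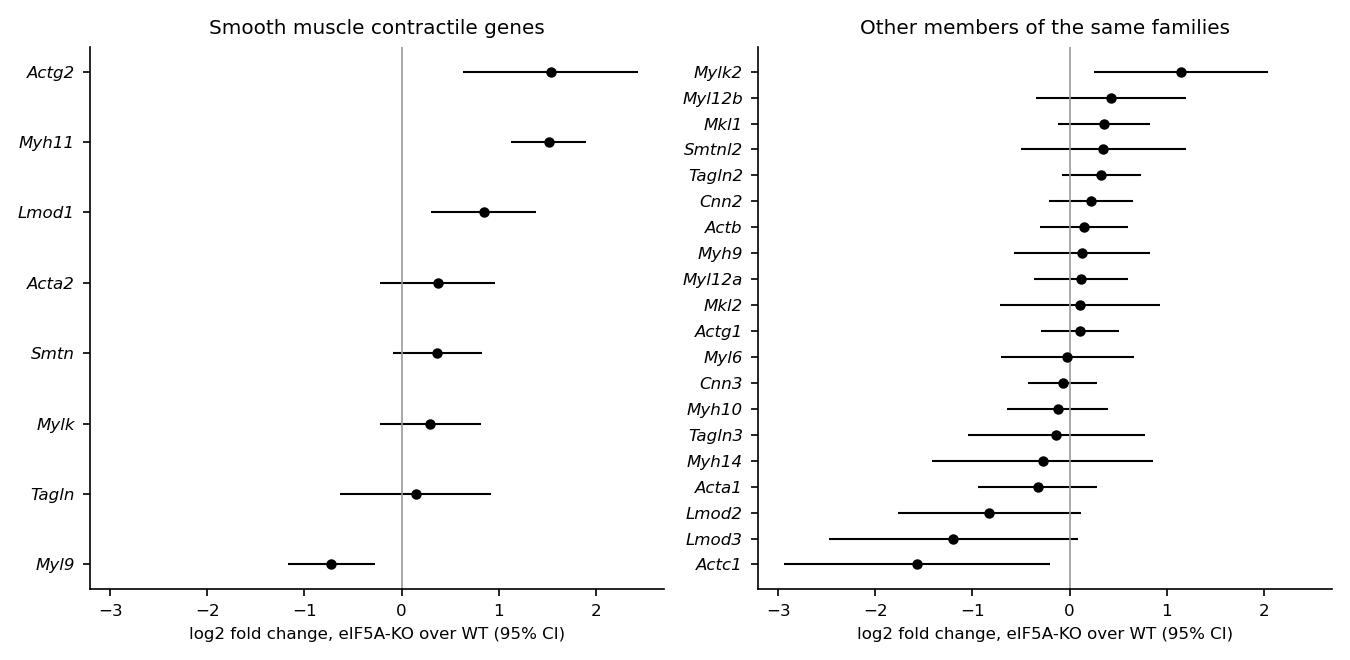
Log2 fold change of the libraries labelled eIF5A-KO over WT (horizontal axis, points, with 95% intervals as lines) for the 8 genes that passed the filter (left) and for 20 other members of their gene families (right). The estimates run from 1.53 for Actg2 and 1.51 for Myh11 to -0.72 for Myl9; Myh11 was chosen by this contrast and Actg2 passed the filter through the KO-labelled libraries, so their places are a description.

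Of the 8 genes that passed the filter, 7 had a higher and 1 a lower estimate in the KO-labelled libraries, with a median log2 fold change of 0.37 against -0.01 over all 14679 genes. Since these include Myh11, chosen by this contrast, and Actg2, which the filter kept for its level in the KO-labelled libraries, the count and the median partly restate the choice and nothing is read from them. Myh11, Actg2 and Lmod1 were higher without overlap between the groups, as 5.68% of all tested genes were, and Myl9 was lower without overlap, as 6.83% were. After Benjamini-Hochberg adjustment of the edgeR p-values for every tested gene, 1 of the 8, Myh11, was past the threshold of 0.05 on the higher side and 0 on the lower side. In all, 0.00681% of the tested genes passed on the higher side and 0.0136% on the lower side. Myh11 was the 1 gene that passed on the higher side, so this call is what the choice rested on and nothing is read from it. Its adjusted p was 0.0486, and the next lowest of the 8 was 0.398, for Actg2. An unadjusted p under 0.05 was held by 6.76% of all tested genes, which is the background for the counts of such genes in the lists below.

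The estimate of Myh11 barely moved when libraries were left out, from 1.43 to 1.57, but its call did. It stayed past the threshold without WT 1 (adjusted p = 0.0108, edgeR) and was lost in the other 5 cases. The adjusted p was 0.0792 without WT 2, 0.315 without WT 3, and 0.195, 0.245 and 0.311 without KO-labelled libraries 1, 2 and 3.

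**Figure D3:**
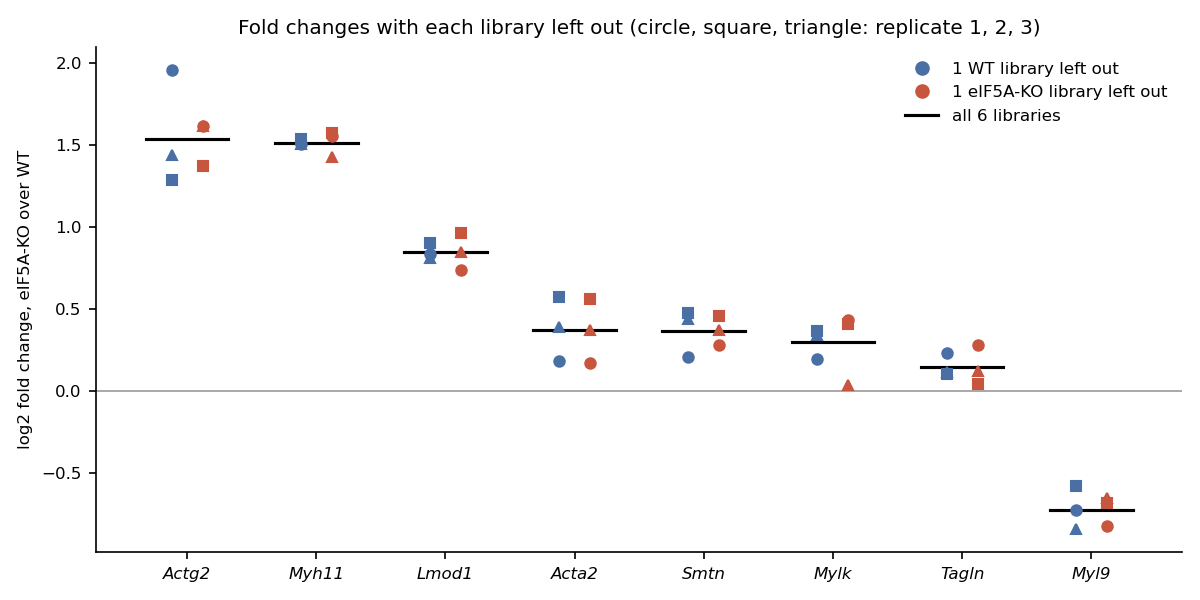
Log2 fold change (vertical axis) of the 8 genes with all 6 libraries (black lines) and with each library left out in turn (points, blue for a WT and red for an eIF5A-KO library). The points of Myh11 stay between 1.43 and 1.57 and those of Myl9 between -0.84 and -0.58, while Mylk comes to 0.04 without KO-labelled library 3.

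Each of these genes has relatives that act in other cells, and the share of a family that the smooth muscle member held ran from under 1% for Actg2, Tagln, Cnn1 and Myocd to over 90% for Smtn. Of the summed FPKM of 4 myosin heavy chains, Myh11 made up 3.18%, 1.40% and 1.86% in WT 1 to 3 and 5.39%, 4.80% and 4.71% in the KO-labelled libraries. The groups did not overlap. The rest was mostly Myh9, the non-muscle heavy chain IIA, at 63.7 ± 27.6 FPKM in WT and 69.9 ± 11.5 FPKM in the KO-labelled libraries (SD, n = 3). Myh11 was chosen by this contrast, so its share partly restates the choice and nothing is read from the separation.

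Among 6 actins, Acta2 made up 2.15 ± 0.684% of the FPKM in WT and 2.54 ± 0.555% in the KO-labelled libraries (SD, n = 3), with overlap, and Actg2 0.0221 ± 0.0111% and 0.0667 ± 0.0154%, without overlap. The direction of Actg2 was fixed by the filter, so nothing is read from the separation of its share. Actb and Actg1, the cytoplasmic actins, held most of the rest, Actb at 1172 ± 115 FPKM in WT. Actc1, the cardiac actin also made in early skeletal differentiation, had a log2 fold change of -1.57 ± 0.61 (SE), and Acta1, the skeletal actin, -0.33 ± 0.27.

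The share of Myl9 was also lower in the KO-labelled libraries without overlap. It was 18.3%, 29.7% and 20.6% of the FPKM of Myl9, Myl12a and Myl12b, 3 regulatory light chains, in WT 1 to 3, and 14.0%, 13.2% and 14.3% in the KO-labelled libraries. Myl12a, the main non-muscle form, had 84.1 ± 20.1 FPKM in WT and 91.8 ± 12.2 FPKM in the KO-labelled libraries. Myl6, the essential light chain, had a log2 fold change of -0.02 ± 0.31.

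Lmod1 made up 59.3%, 33.6% and 53.4% of 3 leiomodins in WT 1 to 3 and 76.4%, 73.5% and 80.9% in the KO-labelled libraries. Lmod2 and Lmod3, the cardiac and skeletal forms, had log2 fold changes of -0.83 and -1.20, each read from under 1 CPM on average. Lmod2 passed the filter on low counts through the WT libraries, so its lower direction was fixed. It is among the lower relatives counted below, and it enters the shares of Lmod1. Smtn was 93.9 ± 2.05% of its family in WT and 94.99 ± 1.26% in the KO-labelled libraries. Tagln was 0.152% and 0.140% of the transgelins and Cnn1 0.0105% and 0.0502% of the calponins, most of the rest being Tagln2, Cnn2 and Cnn3, which non-muscle cells use.

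Mylk made up 20.4 ± 8.51% of the 4 light chain kinases in WT and 12.9 ± 8.16% in the KO-labelled libraries, with overlap. Most of the rest was Mylk2, the skeletal muscle kinase, with a log2 fold change of 1.14 ± 0.40 and 7.32 ± 3.80 FPKM in WT against 16.3 ± 6.94 FPKM in the KO-labelled libraries. Among the 23 relatives measured, 20 were tested, of which 11 had a higher and 9 a lower estimate. Of these, 0 passed the adjusted threshold of the edgeR test, and 2 had an unadjusted p under 0.05. Their median log2 fold change was 0.11, and 0.04 and 0.05 without KO-labelled library 1 and without WT 1.

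**Figure D4:**
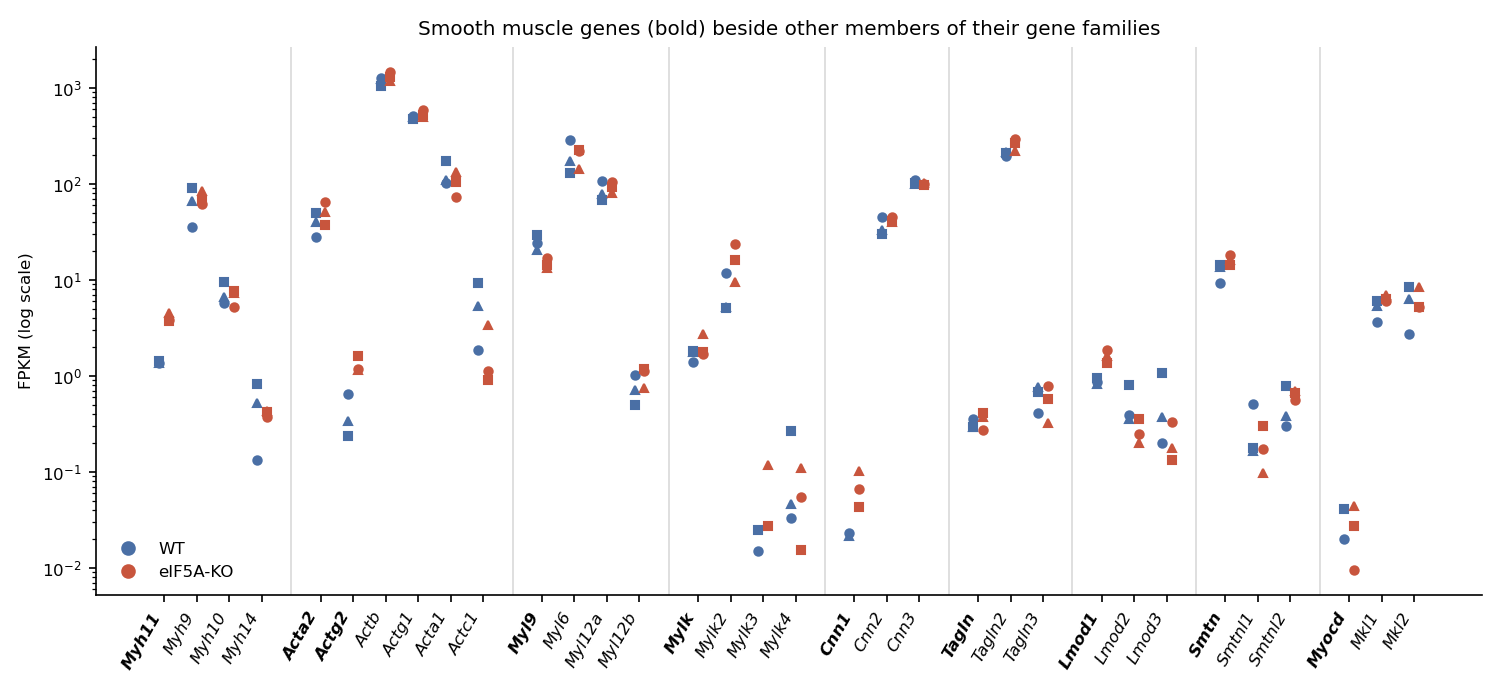
FPKM on a log scale (vertical axis) of the 10 genes (bold) and of 23 other members of their families in the 3 WT (blue) and 3 eIF5A-KO (red) libraries; a value of 0 is not drawn. Myh9, Actb, Myl6, Cnn3 and Tagln2 lie far above Myh11, Actg2, Myl9, Cnn1 and Tagln in both groups.

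The other genes of the pathway were taken from lists. For SRF and 11 of its regulators the median was 0.06 on the log2 scale, 7 being higher and 5 lower. This median turned to -0.07 without WT 1 and -0.02 without KO-labelled library 3, and was 0.15 without WT 2. Srf itself had 39.1, 81.7 and 71.5 CPM in WT 1 to 3 and 67.2, 64.3 and 67.7 CPM in the KO-labelled libraries, with overlap. Mkl1, a myocardin-related co-activator of SRF that is far more abundant here than Myocd, had a log2 fold change of 0.35 ± 0.21 (SE), and Fhl2 had 0.27 ± 0.23. Scai, a suppressor of Mkl1, had -0.84 ± 0.29, and Foxo4 -0.39 ± 0.21. None of the 12 passed the adjusted threshold of the edgeR test, and 1 had an unadjusted p under 0.05.

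Of 24 further smooth muscle contractile and cytoskeletal genes, 22 were tested, with 9 higher, 13 lower and a median of -0.01. Sncg, gamma-synuclein, had a log2 fold change of 0.48 ± 0.25 and Synpo2, an actin-bundling protein, 0.50 ± 0.28. Npnt, the matrix protein nephronectin, had -1.82 ± 0.39, and Vcl, vinculin, -0.50 ± 0.44. 0 passed the adjusted threshold of the edgeR test, and 2 had an unadjusted p under 0.05. The median of this list was 0.22 without WT 2.

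The enzymes that set light chain phosphorylation, 17 tested genes, were centred at -0.03 on the log2 scale (median), 8 being higher and 9 lower. It ran from -0.11 without KO-labelled library 3 to 0.18 without WT 2. Dapk3, a kinase of the light chain, had 0.64 ± 0.22, and Ppp1r14a, an inhibitor of the light chain phosphatase, 0.45 ± 0.22. Ppp1r14b, a related inhibitor, had -0.36 ± 0.21, and Calm2, a calmodulin gene, -0.32 ± 0.25. 0 passed the adjusted threshold of the edgeR test, and 1 had an unadjusted p under 0.05.

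TGF-beta and PDGF signals act on smooth muscle and mural cells. Of 15 tested genes in this list, 12 had a higher and 3 a lower estimate, with a median of 0.27, which became -0.04 without WT 1. The list also holds Jag1 and Notch3 of the Notch pathway, both among the 12. Pdgfrb and Notch3 are counted again among the mural cell markers below. Tgfb1 had a log2 fold change of 0.62 ± 0.21, and Pdgfrb, the receptor that marks mural cells, 0.81 ± 0.21. Tgfbr1 had -0.44 ± 0.19 and Tgfb2 -0.14 ± 0.33. 0 passed the adjusted threshold of the edgeR test, and 3 had an unadjusted p under 0.05. With DESeq2, 1 gene of all the pathway lists and relatives passed, Npnt, and with limma-voom 0 did.

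Markers of other cell types were read beside the genes described here. Mural cell markers (pericytes and vascular smooth muscle) summed to 434, 739.9 and 584 CPM over 12 genes in WT 1 to 3 and to 826, 828 and 901 CPM in the KO-labelled libraries, without overlap. All 12 had a higher estimate, with a median log2 fold change of 0.59, 5 of the 12 were higher without overlap between the groups, and 0 passed the adjusted threshold of the edgeR test, with 6 at an unadjusted p under 0.05. Vtn had 1.05 ± 0.21 and Pdgfrb 0.81 ± 0.21, while Rgs5 and Mcam, at 0.17 ± 0.27 and 0.10 ± 0.35, overlapped. Pdgfrb alone held 162, 247 and 218 CPM of the sums in WT 1 to 3 and 417, 368 and 318 CPM in the KO-labelled libraries. Without Pdgfrb the sums of the groups overlap, so their separation is not read as a trait of the list. Of the 12, Higd1b averaged under 1 CPM over the 6 libraries, and none was at 0. Higd1b, like Actg2, passed the filter through the KO-labelled libraries, so its direction was fixed, and it is among the 12, the 5 and the 6 genes counted here. The median of the mural markers was 0.34 without KO-labelled library 3 and 0.86 without WT 2. Over all tested genes, as above, 5.68% were higher without overlap and 6.76% had an unadjusted p under 0.05.

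**Figure D5:**
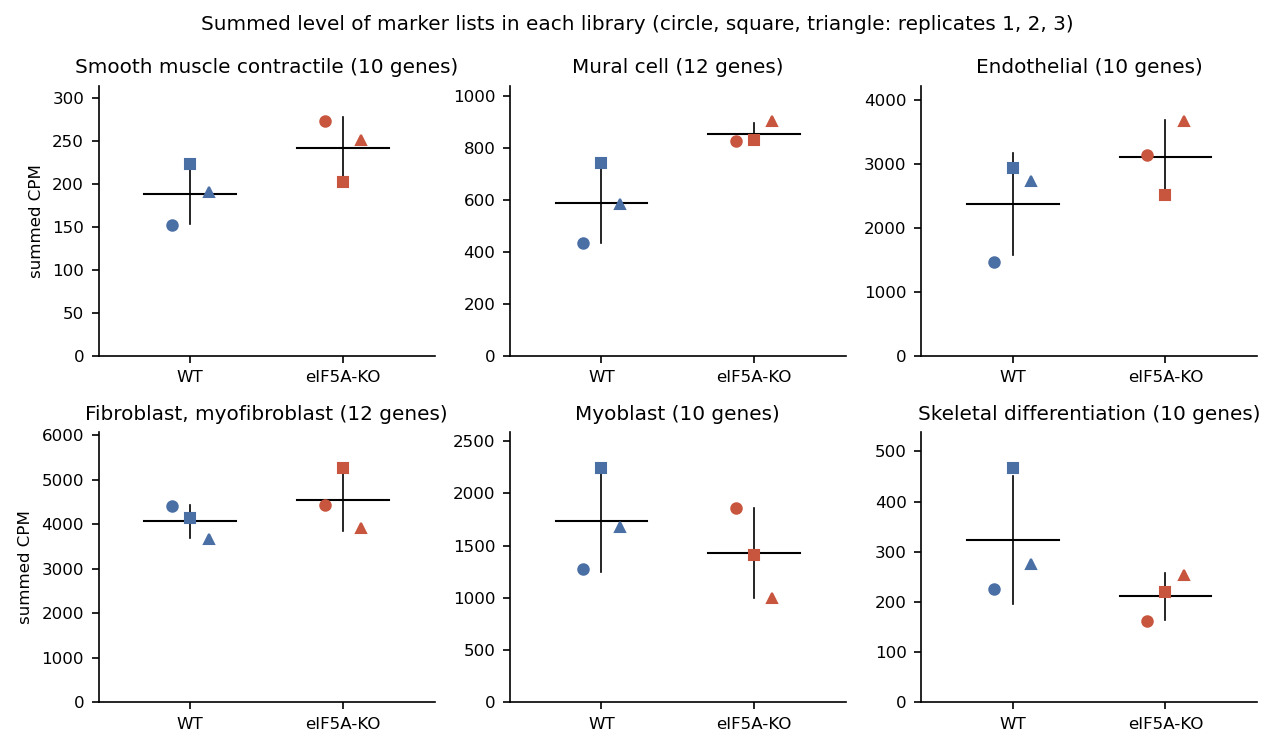
Summed CPM (vertical axes, each from 0) of 6 lists in the 3 WT (blue) and 3 eIF5A-KO (red) libraries; bars are the mean and 1 SD. Mural cell markers lie at 434 to 739.9 CPM in WT and 826 to 901 CPM in the KO-labelled libraries without overlap, and the other 5 lists overlap. The mural sums are apart through Pdgfrb and overlap without it.

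Of the 10 myoblast markers, 3 had a higher and 7 a lower estimate. Their median was -0.33 on the log2 scale, and it was -0.70 without WT 1 and 0.10 without WT 2. Pax7, the satellite cell factor, had -1.49 ± 0.43 with overlap between the groups, and Chrna1, a subunit of the acetylcholine receptor, -1.62 ± 0.40 without overlap. Sdc4 had 0.11 ± 0.26 and Myf5 0.13 ± 0.30. 0 myoblast markers passed the adjusted threshold of the edgeR test, and 2 had an unadjusted p under 0.05.

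Endothelial markers summed to 1463 to 2932 CPM in WT and 2511 to 3664 CPM in the KO-labelled libraries, and all 10 had a higher estimate, with a median log2 fold change of 0.39 (0.18 without WT 1). Tie1 had 0.55 ± 0.35, Cldn5 0.51 ± 0.34, Esam 0.28 ± 0.24 and Tek 0.23 ± 0.26. Fibroblast and myofibroblast markers, 12 genes, had a median of -0.06 with 5 higher and 7 lower, and 0.31 without WT 1. Among them Postn had 0.72 ± 0.35, Col1a1 0.72 ± 0.23, Dcn -0.26 ± 0.33 and Lum -0.38 ± 0.38. Macrophage markers, 8 genes, had a median of 0.25 with 6 higher, which ran from -0.14 without KO-labelled library 1 to 0.84 without WT 2, with Cd68 at 0.83 ± 0.33 and Lyz2 at 0.32 ± 0.48. None of these lists held a gene past the adjusted threshold of the edgeR test, and the number of genes with an unadjusted p under 0.05 was 1, 2 and 1. All 8 tested skeletal muscle differentiation genes had lower estimates, with a median of -1.81 (-0.99 without WT 2). Mymk, among these 8, passed the filter on low counts through the WT libraries, so its lower direction was fixed. Ckm, the muscle creatine kinase, had -0.26 ± 0.28. Myog, the differentiation factor, had -2.91 ± 0.63 and Tnnt2 -2.05 ± 0.41, 0 passed, and 5 had an unadjusted p under 0.05. With DESeq2, 1 mural marker (Vtn), 1 myoblast marker (Chrna1) and 2 differentiation genes (Tnnt2 and Mymk) passed, and with limma-voom no marker did. The call of Mymk carries the limit given above for its direction. In bulk RNA, more or fewer cells of a type and more or less RNA per cell cannot be told apart, and the part of these markers in the levels of Myh11, Actg2, Lmod1 and Myl9 was not tested.

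The 5 genes whose profile over the 6 libraries lay nearest that of Myh11, by the root-mean-square distance of centred log2 CPM among 11033 genes, were Vtn, the matrix protein vitronectin, at 0.303, Lgr6 at 0.324, Nr4a3 at 0.330, Csf2rb2 at 0.364 and Smad6 at 0.364, where the root-mean-square of the Myh11 profile itself was 0.759. All of them differ in the same direction between the groups as Myh11, so the measure follows the group difference as well as any likeness within groups. Near the mean profile of the 8 tested genes, whose own root-mean-square was 0.279, lay Sparcl1 at 0.0531, Gprc5a at 0.0551, Bmp4 at 0.0631 and Pmepa1 at 0.0858. This mean includes Myh11, chosen by the contrast, and Actg2, kept by the filter for its level in the KO-labelled libraries. Its near genes are also higher in the KO-labelled libraries, so the same limit holds and nothing is read from them.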

How the data were processed

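RNA-seq of primary myoblasts gave 3 WT and 3 eIF5A-KO libraries, grouped by the genotype in the labels. After TRIzol extraction the authors used an NEBNext Ultra kit, which does not mark strand, and aligned the reads with HISAT (version not given in the sources used here) to mm10. They named DEGSeq2 for the gene coverage. The authors deposited a count of reads per gene without normalization. A second table deposited by the authors holds FPKM, used here for levels between genes. Depth was 16281216 to 17734551 counts per library, and a common biological coefficient of variation of 0.239 limits the precision of single genes. The members and gene lists were chosen with earlier results of these data known.

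All genes were fitted with the quasi-likelihood test of edgeR 4.0.16 in R 4.3.3, with TMM factors, filterByExpr and a prior count of 2, on 14679 genes, with no covariate, and p-values were adjusted by Benjamini-Hochberg with a threshold of 0.05. SEs are those of the log2 fold change. The fit was tested on simulated data. Alternatives were other normalization factors, filters, DESeq2 1.42.0, limma 3.58.1, the replicate block and leaving out each library. Named were the 10 members, their relatives, of each list the 2 highest and 2 lowest log2 fold changes among genes with a mean of at least 5 CPM and any past the threshold, the 5 genes nearest the Myh11 profile and the 5 nearest the mean profile (1 of these is not reported here), Eif5a, and genes that overlap a member. Overlaps and shared sequence, in windows of 75 bases, were read from GENCODE M21, which matched the coordinates of 9 of the 10 members; for Acta2 it ends at another position. No window of a member's transcripts was shared with another gene. Promoters came from RefSeq (GRCm38.p6). No 2 libraries of the same group agreed within sampling noise.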

Additional observations from a re-analysis of the deposited data

How the results depend on the processing

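All 8 tested members kept their direction under each of their alternatives (17 for 6 genes, and 16 for Actg2 and Tagln, which the filter of 10 counts in every library removed), and the scalings shifted the median of all genes by at most 0.03 on the log2 scale. Myh11 was chosen by this contrast and Actg2 passed the filter through the KO-labelled libraries, so nothing is read from their kept direction. Leaving out each library in turn gave 0.17 to 0.58 for Acta2, 1.28 to 1.96 for Actg2, 0.04 to 0.28 for Tagln, 0.21 to 0.48 for Smtn, 0.74 to 0.96 for Lmod1, 0.04 to 0.43 for Mylk and -0.84 to -0.58 for Myl9. On log2(FPKM + 1), which shrinks low genes by construction, Myh11 was 1.06, Actg2 0.72 and Lmod1 0.47. The call of Myh11 held in 6 of 17 alternatives, with adjusted p from 3.65e-10 (DESeq2) to 0.315 (without WT 3). Of the members, 0 passed the adjusted threshold with DESeq2 size factors, library size alone, at least 10 counts in every library, limma-voom and limma on either log2 FPKM scale, 2 passed with no filter (Myh11 and Actg2), and 0 to 1 when a library was left out. In the settings with 0, an unadjusted p under 0.05 was held by 585 to 1318 genes of all tested.

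The number of genes past the adjusted threshold, 1 higher and 2 lower in the reported fit, was 0 and 0 with DESeq2 size factors, library size alone, at least 10 counts in every library, limma-voom and both log2 FPKM scales, 65 and 184 with no filter, 19 and 73 with DESeq2, and 0 to 8 and 0 to 48 when a library was left out, the highest of each without WT 1. With the replicate block, the replicate number as a term, 7 genes were higher and 17 lower, and the log2 fold change of Myh11 was 1.51. Same-numbered libraries correlated at 0.084, -0.16 and 0.105 in their deviations from the group means, and differently numbered ones at -0.267 to 0.269. No pairing by number was seen, but with 3 libraries per group these values cannot exclude it. The cause of these differences was not tested. The median of the members was 0.37 and ran from 0.22 (without WT 1) to 0.53 (without WT 2), and it was 0.36 without Myh11 and also without Actg2, the last setting chosen after seeing the data. The median of the other smooth muscle genes ran from -0.06 to 0.22 (without WT 2) when a library was left out. Tagln, Cnn1, Myocd and Actg2 are limited by their low counts.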
